A study of Mus musculus with 8 samples.

Results

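Imprinted genes are transcribed from only 1 of the 2 parental copies, under the control of DNA methylation marks set in the germ line, and many of them set fetal and postnatal growth. A group of them is often described as a network because their levels change together when the zinc finger factor Plagl1 or the RNA H19 is disturbed. In the liver the hepatic stellate cell, a vitamin A-storing cell that becomes a collagen-producing myofibroblast, is known to use Dlk1 and necdin to hold back Pparg, the lipid-handling factor of its quiescent state. The 9 genes described here are H19, Meg3, Rian, Dlk1, Plagl1, Peg3, Mest, Grb10 and Ndn. They were picked by symbol, with earlier results of these data known, and each was found as 1 of the 45777 rows of the count table. H19, Meg3, Rian and Grb10 are known as maternally expressed in most tissues, and Dlk1, Plagl1, Peg3, Mest and Ndn as paternally expressed.

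RNA came from primary hepatic stellate cells of male wild-type C57BL/6 mice. Before RNA extraction they received either a non-targeting control siRNA (siControl, 4 libraries) or an siRNA against PAK4, a kinase that acts on the actin cytoskeleton (siPAK4, 4 libraries). All 8 libraries carry the same batch label, and nothing says whether the numbered replicates were separate mice or dishes, so the p-values rest on a spread among libraries that could be purely technical. The values are per gene and do not tell the parental copies apart.

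Library totals ran from 55728583 to 61535063 counts. Pak4, the targeted gene, was lower in every siPAK4 library (5.17 to 7.73 CPM, library-scaled counts) than in any siControl library (16.2 to 18.6 CPM), as the labels say. The defining stellate gene Lrat, for retinol storage, had 0 to 4 counts in siControl and 7 to 22 in siPAK4, while Col1a2 averaged 639 CPM in siControl. Transcripts of other liver cells were present: the summed level of 11 macrophage markers was 9202 to 10645 CPM in siControl and 5233 to 8486 CPM in siPAK4, of which Lyz2, a lysozyme, alone made up 7158 to 8429 and 3985 to 6741 CPM. That of 9 endothelial markers was 6041 to 6249 CPM in siControl and 3539 to 5194 CPM in siPAK4. Each of these sums was above that of 14 stellate markers, 1403 to 1787 CPM in siControl and 905 to 1113 CPM in siPAK4. Sums over lists of different genes do not give shares of cells. siPAK4 replicate 3 stood apart from the other siPAK4 libraries, giving a chi-square over genes, divided by its degrees of freedom, of 52.0 to 74.4 against each of them, where the other siPAK4 pairs gave 13.7 to 28.7. Without it the same count of members, 5, was lower.

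Some of the RNAs are also hosts of microRNAs. The gene spans of H19, Meg3, Rian and Mest hold 13 mature microRNAs in RefSeq (build GRCm38.p6, also called mm10), with 13 different seeds, so none of them share a seed. The sequences of those in Mest and Rian, whose host transcripts were lower with siPAK4, and in H19, whose host varied most, are shown with the seed, bases 2 to 8, in capitals. The libraries were made from messenger RNA, and mature microRNAs were not measured.
miR-335-5p: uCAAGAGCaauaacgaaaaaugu
miR-335-3p: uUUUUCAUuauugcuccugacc
miR-341-5p: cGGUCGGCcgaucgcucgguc
miR-341-3p: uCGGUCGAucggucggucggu
miR-1188-5p: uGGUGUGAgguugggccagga
miR-1188-3p: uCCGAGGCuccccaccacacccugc
miR-370-5p: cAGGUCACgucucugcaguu
miR-370-3p: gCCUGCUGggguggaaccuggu
miR-675-5p: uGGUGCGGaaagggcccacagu
miR-675-3p: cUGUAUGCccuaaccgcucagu
The first pair lies in Mest, the next 6 in Rian and the last pair in H19.

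The hexamer TGCCGC is the core of the site bound by Zfp57, the zinc finger protein that keeps methylation at imprinted control regions. Searched on both strands in windows of 250 bases before to 50 bases after each RefSeq start, it was found in 11.6% of 32851 windows. Among the members, 8 of 9 had a window (H19 had none) and 12 windows were searched. It was present in at least 1 window of Mest, Plagl1, Grb10 and Meg3 and was not in the windows of Rian, Dlk1, Peg3 or Ndn. The share of 11.6% is per window, and a member with several windows had more than 1 chance of a match. Mest windows starting at 30737800 and 30737803 overlap and hold the same matches. Other short motifs were also searched in these windows and are not described here. The windows of 3 members that were lower with siPAK4 and held it are shown, with the matches in capitals. Each match reads GCGGCA along the printed strand, the reverse complement of the hexamer.
Mest promoter, chr6:30737800-30738099, plus strand: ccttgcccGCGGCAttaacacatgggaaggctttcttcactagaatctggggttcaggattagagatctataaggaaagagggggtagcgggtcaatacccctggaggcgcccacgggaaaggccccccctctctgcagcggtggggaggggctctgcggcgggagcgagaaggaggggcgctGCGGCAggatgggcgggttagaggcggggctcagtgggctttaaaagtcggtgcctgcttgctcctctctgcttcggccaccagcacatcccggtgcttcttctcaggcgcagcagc
Plagl1 promoter, chr10:13090582-13090881, plus strand: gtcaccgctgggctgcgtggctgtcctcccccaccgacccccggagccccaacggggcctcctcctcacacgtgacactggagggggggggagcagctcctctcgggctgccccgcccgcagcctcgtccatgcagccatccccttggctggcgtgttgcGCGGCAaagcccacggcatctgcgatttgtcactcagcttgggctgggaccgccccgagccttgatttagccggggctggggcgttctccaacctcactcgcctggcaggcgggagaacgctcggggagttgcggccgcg
Grb10 promoter, chr11:12037371-12037670, minus strand: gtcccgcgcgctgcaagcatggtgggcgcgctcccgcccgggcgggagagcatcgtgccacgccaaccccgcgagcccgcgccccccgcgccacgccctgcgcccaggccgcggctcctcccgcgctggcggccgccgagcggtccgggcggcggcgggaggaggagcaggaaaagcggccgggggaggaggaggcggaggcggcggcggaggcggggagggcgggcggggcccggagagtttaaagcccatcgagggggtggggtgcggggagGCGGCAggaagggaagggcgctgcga
The Mest window held 2 matches and 17 CpG dinucleotides, the Plagl1 window 1 match and 26, and the Grb10 window 1 match and 45, more than in 98.1% of all windows. The Rian window held 0 CpG, and the median of all windows was 7. The share of 11.6% takes no account of CpG content. The other Grb10 window held no match. Zfp57 itself was not called (13.7 ± 1.32 CPM in siControl and 14.4 ± 0.657 in siPAK4, log2 fold change 0.08, adjusted p = 0.55; SD, n = 4 each). A match describes letters in a window and says nothing of binding in these cells. Whether these windows lie in imprinted control regions was not examined.

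Levels of different genes can be compared only per length. By the deposited TPM values (transcript abundance scaled for length) the members spanned a wide range of expression in siControl. Grb10, an adaptor that dampens insulin and IGF receptor signalling, was highest at 127 ± 6.71 TPM (SD, n = 4). Mest, a putative hydrolase of mesoderm, followed at 87.9 ± 3.06 TPM. Ndn (mean 23.0, libraries from 21.7 to 26.1 TPM) and Rian (22.0 ± 2.21 TPM) did not differ beyond their spread. Peg3 (13.6 ± 0.634 TPM) and Plagl1 (11.9 ± 1.25 TPM) also had overlapping libraries. Meg3 (3.71 ± 0.670 TPM), H19 (1.00 ± 0.266 TPM) and Dlk1 (0.148 ± 0.0967 TPM) were at the bottom. Over all 8 libraries, 93.0% of the tested genes had a lower mean TPM than Grb10, and 3.18% a lower one than Dlk1.

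With siPAK4, 5 of the 9 members were lower, 0 were higher and 4 did not pass edgeR's quasi-likelihood test at an adjusted p of 0.05. Mest, Rian, Plagl1, Grb10 and Ndn were those that fell, and Meg3, Peg3, H19 and Dlk1 did not pass. The count was 3 with library totals, TPM or FPKM, and 3 without siControl replicate 2 or without siPAK4 replicate 1. In the same comparison 26.9% of 17975 tested genes were called, 14.5% of them lower and 12.4% higher as shares of all tested genes. The groups did not overlap in 5 members, all lower, where that held for 28.8% of tested genes in either direction and for 14.8% with siPAK4 lower. The members' median log2 fold change was −0.24, and that of all tested genes 0.0052. The falls were of both classes, with Rian and Grb10 among the maternally expressed genes and Mest, Plagl1 and Ndn among the paternally expressed.

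**Figure D1:**
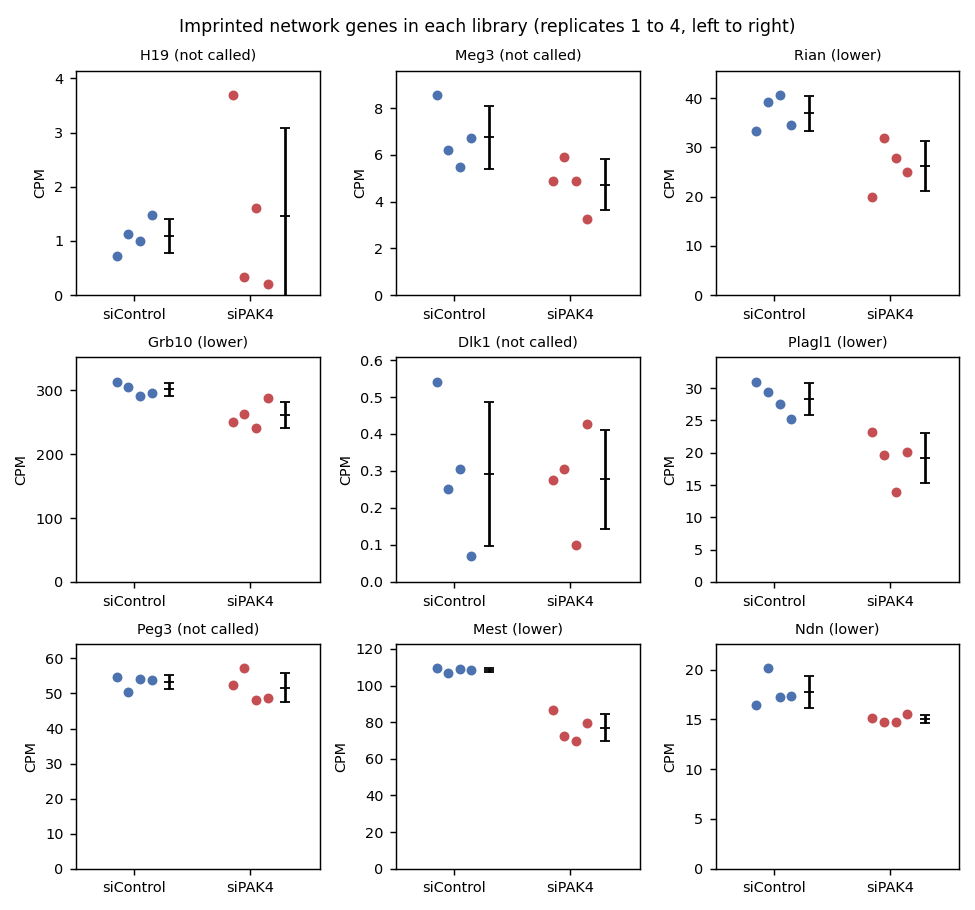
Level of each of the 9 genes in CPM on the TMM-scaled library size (y axis, from 0), one point per library, in siControl (blue) and siPAK4 (red). The black bar is the mean and SD of 4 libraries; for H19 in siPAK4 the bar reaches below 0 and is drawn from 0. Mest, Rian, Plagl1, Grb10 and Ndn do not overlap between the groups, and H19 spreads from 0.204 to 3.70 CPM within siPAK4.

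Mest had the smallest p-value of the members. Its level was 109, 107, 109 and 108 CPM in siControl replicates 1 to 4 and 86.4, 72.3, 69.8 and 79.4 CPM in siPAK4 replicates 1 to 4. The siControl libraries were nearly equal, and every siPAK4 library was below all of them. Mean levels were 108 ± 1.13 CPM (siControl) and 77.0 ± 7.49 CPM (siPAK4, SD, n = 4 each), and the second was 71.0% of the first. The log2 difference was −0.49 (SE 0.0669, edgeR adjusted p = 0.00026). Mest (NCBI gene 17294) spans chr6:30733506-30748466 in mm10.

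Plagl1, the zinc finger transcription factor at the centre of the network (NCBI gene 22634, chr10:13090832-13131694), was 31.0, 29.3, 27.5 and 25.3 CPM in siControl and 23.3, 19.6, 13.9 and 20.1 CPM in siPAK4. The lowest siPAK4 library was replicate 3, the one that stood apart, and the groups did not overlap. The log2 fold change was −0.56 (SE 0.131, edgeR adjusted p = 0.0088). Without that library it was −0.43, with an edgeR adjusted p of 0.0017.

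Rian, a nuclear non-coding RNA that hosts small nucleolar RNAs and microRNAs (NCBI gene 75745, chr12:109603945-109661716), was 33.4, 39.1, 40.7 and 34.4 CPM in siControl. In siPAK4 it was 19.9, 31.9, 27.8 and 25.0 CPM, with replicate 1 the lowest and replicate 2 just under the lowest siControl library. The fall was −0.50 on the log2 scale (SE 0.125, edgeR adjusted p = 0.012). Meg3, the non-coding RNA of the same maternal chromosome that acts as a growth suppressor (NCBI gene 17263, chr12:109540996-109571729), was 8.58, 6.20, 5.46 and 6.74 CPM in siControl and 4.87, 5.90, 4.87 and 3.24 CPM in siPAK4. siPAK4 replicate 2 lay above siControl replicate 3, so the groups overlapped. Its log2 fold change of −0.51 (SE 0.182) was as large as that of Rian but did not pass (edgeR adjusted p = 0.057). DESeq2 called it lower (−0.51, adjusted p = 0.025), and so did edgeR without siControl replicate 3 (−0.60, adjusted p = 0.049) or without siPAK4 replicate 2 (−0.64, adjusted p = 0.036). Over its 17 alternatives the adjusted p ran from 0.025 to 0.20.

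Grb10 (NCBI gene 14783, chr11:11930499-12037428) fell by a smaller amount. It was 314, 306, 292 and 296 CPM in siControl and 251, 263, 242 and 288 CPM in siPAK4, with siPAK4 replicate 4 just below the lowest siControl library. The log2 fold change was −0.21 (SE 0.0627, edgeR adjusted p = 0.028). Ndn, which encodes necdin, a growth-restraining protein of the MAGE family (NCBI gene 17984, chr7:62348277-62349928), was 16.5, 20.1, 17.2 and 17.3 CPM in siControl and 15.1, 14.7, 14.7 and 15.6 CPM in siPAK4. The siPAK4 libraries were close together, below all siControl libraries, and siControl replicate 2 was the highest. The log2 fold change was −0.24 (SE 0.0760, edgeR adjusted p = 0.034). Both calls were lost with library totals in place of TMM scaling (Grb10 −0.12, adjusted p = 0.16; Ndn −0.15, adjusted p = 0.15). The Grb10 call was also lost when siControl replicate 1 or 2 or siPAK4 replicate 1 or 2 was left out, and the Ndn call when any library but siControl replicate 1 or siPAK4 replicate 3 was, with values in the section on processing.

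Peg3, a zinc finger gene that acts in apoptosis and maternal behaviour (NCBI gene 18616, chr7:6703892-6730462), had a standard error close to that of Grb10 and was not called. It was 54.6, 50.5, 54.2 and 53.9 CPM in siControl and 52.5, 57.2, 48.1 and 48.7 CPM in siPAK4, and siPAK4 held both the highest and the lowest library. The log2 fold change was −0.05 (SE 0.0655, edgeR adjusted p = 0.65), with a 95% interval from the fit of −0.19 to 0.10. Its sign turned with library totals (0.044), TPM (0.020) and FPKM (0.065 and 0.075 by pseudocount), and it was not called in any of the 17 alternatives.

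H19, a growth-restraining RNA that is abundant in fetal liver (NCBI gene 14955, chr7:142575530-142578146), had the widest spread. Its counts were 40, 63, 59 and 84 in siControl and 214, 20, 97 and 12 in siPAK4, or 0.722 to 1.49 CPM and 0.204 to 3.70 CPM. Within siPAK4 the highest library was 18.1-fold above the lowest, with replicates 1 and 3 above every siControl library and replicates 2 and 4 below them. The log2 fold change of 0.43 (SE 0.722, edgeR adjusted p = 0.71) had an interval of −1.19 to 2.05, and without siPAK4 replicate 1 it was −0.59 (adjusted p = 0.51). A difference between the groups was not detectable with this spread.

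Dlk1, a membrane protein with EGF repeats that holds back adipocyte differentiation and is known from activated stellate cells (NCBI gene 13386, chr12:109452485-109463336), was close to the limit of testing. Its counts were 30, 14, 18 and 4 in siControl and 16, 18, 6 and 25 in siPAK4. The groups overlapped fully, with a log2 fold change of −0.08 (SE 0.540, edgeR adjusted p = 0.94) and an interval of −1.26 to 1.11, so that a change of up to about 2-fold either way was not detectable at this depth. All 9 members passed the filter on low counts, and Dlk1 was the only one that a minimum mean of 1 CPM would remove.

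**Figure D2:**
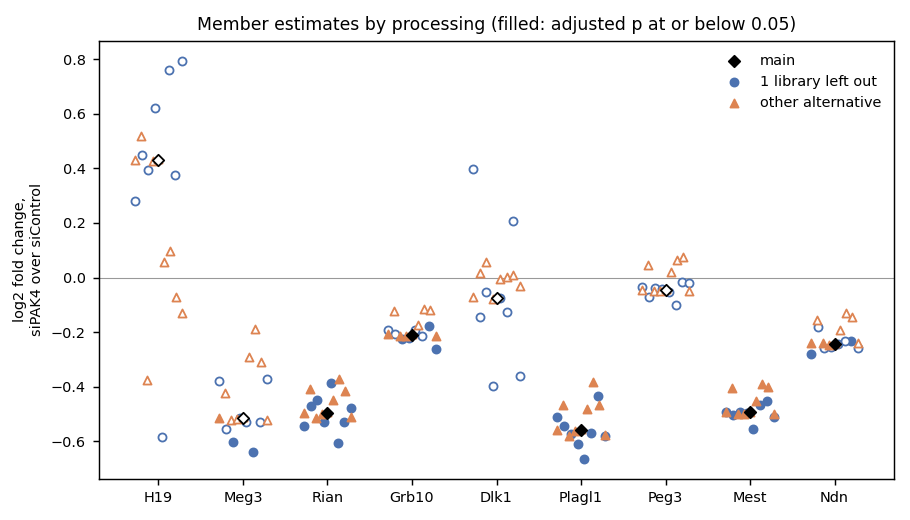
Log2 fold change of each member (y axis) in the reported fit (black diamond), with 1 library left out (blue circles) and under the other alternatives (orange triangles). Filled symbols have an adjusted p of 0.05 or below: Mest, Rian and Plagl1 are filled throughout, Grb10 and Ndn in part, and Peg3, H19 and Dlk1 nowhere.

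The neighbours of each member on its chromosome show whether a whole region moved. Of the Dlk1 to Dio3 domain, Mirg, a further non-coding RNA of the maternal chromosome that holds a cluster of microRNAs, was 0.903, 0.804, 0.781 and 0.796 CPM in siControl and 0.518, 0.680, 0.532 and 0.647 CPM in siPAK4. The groups did not overlap, but the test did not pass (log2 fold change −0.46, SE 0.204, edgeR adjusted p = 0.12). The flanking genes outside the imprinted interval, Wdr25 (−0.18), Wars (0.09) and Ppp2r5c (−0.00), were not called either, with adjusted p of 0.28 or above. Dio3, the deiodinase gene at the far end, had 2 counts in 1 library. Begain, a neuronal gene beside the domain, was too low to test, with 11, 8, 18 and 7 counts in siControl and 0, 5, 0 and 0 in siPAK4. Its groups did not overlap. Rtl1, a retrotransposon-derived gene, had 0 counts in all 4 siControl libraries and 8, 0, 29 and 13 in siPAK4. The filter removed Rtl1 from the reported fit. Without the filter edgeR called it higher (log2 fold change 6.62, adjusted p = 0.021), a value that rests on these few counts. Its RefSeq span (chr12:109564900-109604418) overlaps those of Meg3 and Rian, and the strand setting of the counting is not given in the sources used here, so its reads cannot be assigned with certainty.

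Around Mest, the 3 other tested genes were not called. Copg2, a coatomer subunit gene whose span (chr6:30747554-30896815) overlaps the end of Mest, was 68.0, 66.5, 70.9 and 71.7 CPM in siControl and 69.4, 70.7, 70.6 and 71.4 CPM in siPAK4 (log2 fold change 0.03, SE 0.0491, edgeR adjusted p = 0.74). Cep41 (0.02) and Mkln1 (0.11) were also not called, while Klf14 and Tsga13 had 0 counts and Cpa1 had 3 in 1 library. The strand setting of the counting is not known, so reads where Mest and Copg2 overlap may have been given to either. Around Plagl1, Phactr2 (−0.08), Ltv1 (0.05), Sf3b5 (0.03) and Utrn (−0.11) were not called and Stx11, a syntaxin gene of immune cells, rose (0.43, edgeR adjusted p = 0.0056).

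All 5 tested genes listed for the Grb10 region, Grb10 among them, were lower, where 14.5% of all tested genes were. Ddc, which encodes the aromatic amino acid decarboxylase and is imprinted with Grb10 in some tissues, went from 3.30 ± 0.275 to 2.13 ± 0.167 CPM (log2 fold change −0.63, edgeR adjusted p = 0.0033). Cobl, an actin nucleator (−0.82, adjusted p = 0.0058), Fignl1 (−0.41, adjusted p = 0.011) and Ikzf1, a lymphoid and myeloid transcription factor (−0.32, adjusted p = 0.025), also fell. For Ikzf1 the groups overlapped. Of 10 tested macrophage markers 6 were lower in the same libraries, and their part in the values of this region was not tested. The Ikzf1 call was lost without siControl replicate 2 or 3 or siPAK4 replicate 1, 2 or 4, with adjusted p of 0.057 to 0.082. It was also lost with library totals (−0.23, adjusted p = 0.070), TPM (−0.24, 0.083) and FPKM (−0.17 and −0.21, both 0.14). In the Ndn region, by contrast, Mkrn3, a ring finger gene that restrains puberty, rose from 0.960 ± 0.0482 to 1.82 ± 0.418 CPM (0.92, edgeR adjusted p = 0.0039). Peg12 (−0.18), Ube3a (−0.00), Snurf (0.03) and Snrpn (0.37) were not called. Snrpn and Snurf share a transcript, so their separate counts are uncertain, and Magel2 had 0 counts in all libraries.

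**Figure D3:**
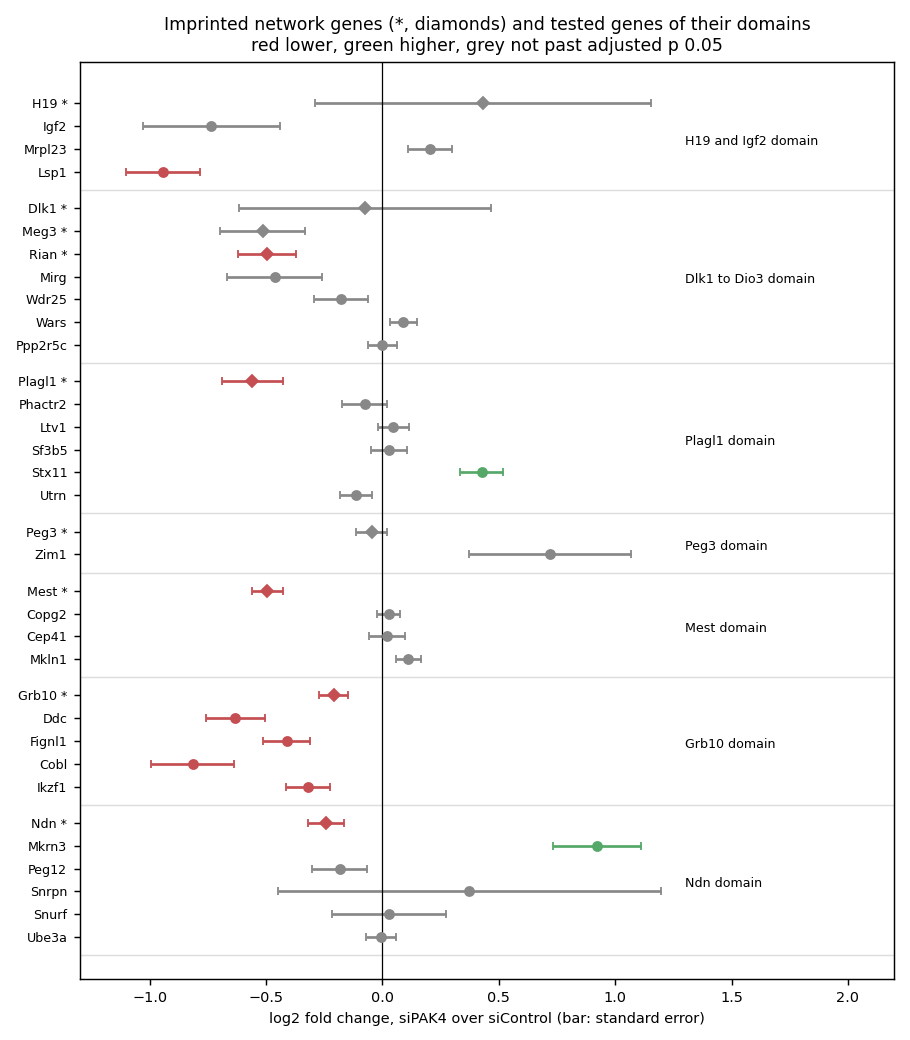
Log2 fold change with its standard error (x axis) for the tested genes of each of the 7 domains, members as diamonds with an asterisk. Genes called lower are red, higher green, and grey genes did not pass an adjusted p of 0.05; Mest falls beside Copg2, Cep41 and Mkln1 near 0, and the 5 Grb10 region genes are all red.

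Beside H19, Igf2, the fetal growth factor that shares its control region, was also scarce. Its counts were 51, 40, 50 and 41 in siControl and 43, 20, 18 and 32 in siPAK4 (log2 fold change −0.73, SE 0.296, edgeR adjusted p = 0.089). Without siPAK4 replicate 1 it was called lower (−1.02, adjusted p = 0.026; 0.026 to 0.21 over its alternatives). Lsp1, a leukocyte actin-binding gene further along the chromosome, fell (−0.94, edgeR adjusted p = 0.0013), and Mrpl23 (0.21) was not called. Igf2os and Nctc1 had 0 counts, Ins2 had 6 counts in 1 siPAK4 library. Th had 18 counts in all, none of them in siPAK4, and Tnnt3 had 24 over both groups. Beside Peg3, Usp29 had too few reads to test, with 5, 9, 9 and 4 counts in siControl and 5, 15, 6 and 15 in siPAK4. Zim1 was not called (0.72, SE 0.348, edgeR adjusted p = 0.15), and Zim3 had 0 counts.

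A ratio of the counts of 2 genes within a library does not depend on how libraries are scaled, though with TPM its gene lengths and offset differ. Of 11 pairs considered, 9 had enough reads, and each was compared by a two-sided exact permutation test over the 70 splits of 8 libraries, whose smallest possible p is 0.029. Mest over Copg2 fell from 0.65 ± 0.0450 to 0.12 ± 0.148 on the log2 scale (SD, n = 4 each; exact p = 0.029, adjusted p = 0.086), and Plagl1 over Phactr2 from −1.62 ± 0.111 to −2.11 ± 0.145 (exact p = 0.029, adjusted p = 0.086). Grb10 over Ddc was higher in siPAK4, at 6.93 ± 0.218 against 6.51 ± 0.128 (exact p = 0.029, adjusted p = 0.086). In these 3 ratios the groups did not overlap, and each had the smallest possible p. None passes 0.05 once adjusted over the 9 ratios. With only 3 of 9 ratios at the smallest p, an adjusted p of 0.05 could not be reached.

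The ratio of Meg3 to Rian was −2.46 ± 0.404 in siControl and −2.48 ± 0.377 in siPAK4, a difference of −0.01 (exact p = 0.97, adjusted p = 0.97). Meg3 over Mirg differed by −0.06 (exact p = 0.89, adjusted p = 0.97) and Meg3 over Dlk1 by −0.59 (exact p = 0.46, adjusted p = 0.69). The latter was −0.04 without siControl replicate 4 and −1.03 without siPAK4 replicate 3. H19 over Igf2 differed by 0.44 (exact p = 0.63, adjusted p = 0.81) (−0.05 without siPAK4 replicate 1 and −0.08 without replicate 3), and Peg3 over Zim1 by −0.86 (exact p = 0.057, adjusted p = 0.13). With TPM and an offset of 0.1 the Peg3 to Zim1 difference was −0.33 (adjusted p = 0.26). Ndn over Snrpn differed by −1.95 (exact p = 0.29, adjusted p = 0.51); Snrpn had 0 counts in siControl replicate 3, without which the difference was −0.42.

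**Figure D4:**
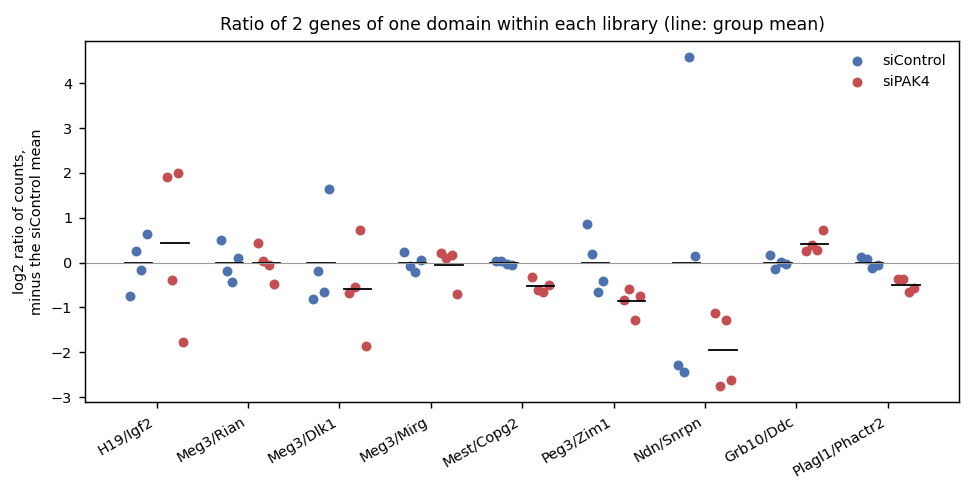
Log2 ratio of the counts of 2 genes of one domain in each library, with the siControl mean of that ratio subtracted (y axis), for 9 pairs (x axis); siControl is blue, siPAK4 red, and the line is the group mean. The groups are apart for Mest/Copg2, Grb10/Ddc and Plagl1/Phactr2, and mixed for Meg3/Rian and Meg3/Mirg.

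Other imprinted genes of the mouse were looked at as the wider setting, from a list of 64 that includes genes imprinted only in the placenta or other single tissues. The count table held 62, and 46 were tested, of which 13 were lower, 4 higher and 29 did not pass, with a median log2 fold change of −0.10. That is 17 called of 46 where 26.9% of all tested genes were. The counts moved with the scaling: with library totals 9 were lower and 8 higher, with TPM 8 and 4, and with FPKM 8 lower and 7 or 8 higher by pseudocount. Over all genes the split of calls moved in the same way, from 2227 higher and 2605 lower (46.1% higher) to 3877 and 1859 with library totals (67.6% higher) and 3619 and 1712 with FPKM and a pseudocount of 1 (67.9% higher).

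Slc38a4, a paternally expressed amino acid transporter, had the largest fall of that list. It was 6.81, 8.47, 7.42 and 6.79 CPM in siControl and 1.83, 3.06, 2.83 and 3.08 CPM in siPAK4 (log2 fold change −1.45, SE 0.159, edgeR adjusted p = 6.1e-05). Tfpi2, a matrix-associated protease inhibitor (−1.21), Gatm, the first enzyme of creatine synthesis (−0.91), and Zdbf2 (−0.95) fell with adjusted p of 0.0012 or below. Igf2r, the receptor that clears Igf2 and carries lysosomal enzymes, fell from 563 ± 10.2 to 452 ± 18.2 CPM (−0.32, edgeR adjusted p = 0.0011). Ddc, Cd81 (−0.24), Gnas, the stimulatory G protein subunit gene (−0.29), Osbpl5 (−0.25), Kcnq1 (−0.65), Pon3 (−0.23), Peg10, a retrotransposon-derived gene (−0.56), and Tssc4 (−0.24) made up the rest of the 13.

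Cdkn1c, which encodes the growth-restraining cell cycle inhibitor p57, went the other way. It was 20.8, 16.8, 14.2 and 14.4 CPM in siControl and 24.3, 24.5, 34.2 and 20.8 CPM in siPAK4, with the highest siControl and the lowest siPAK4 library at about the same level (log2 fold change 0.65, SE 0.157, edgeR adjusted p = 0.011). Mkrn3, Blcap (0.33) and Sfmbt2 (0.43) were the other 3 that rose. Kcnq1 and the non-coding RNA that runs through it, Kcnq1ot1 (−0.14, adjusted p = 0.37), may share reads, since the strand setting of the counts is not known.

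**Figure D5:**
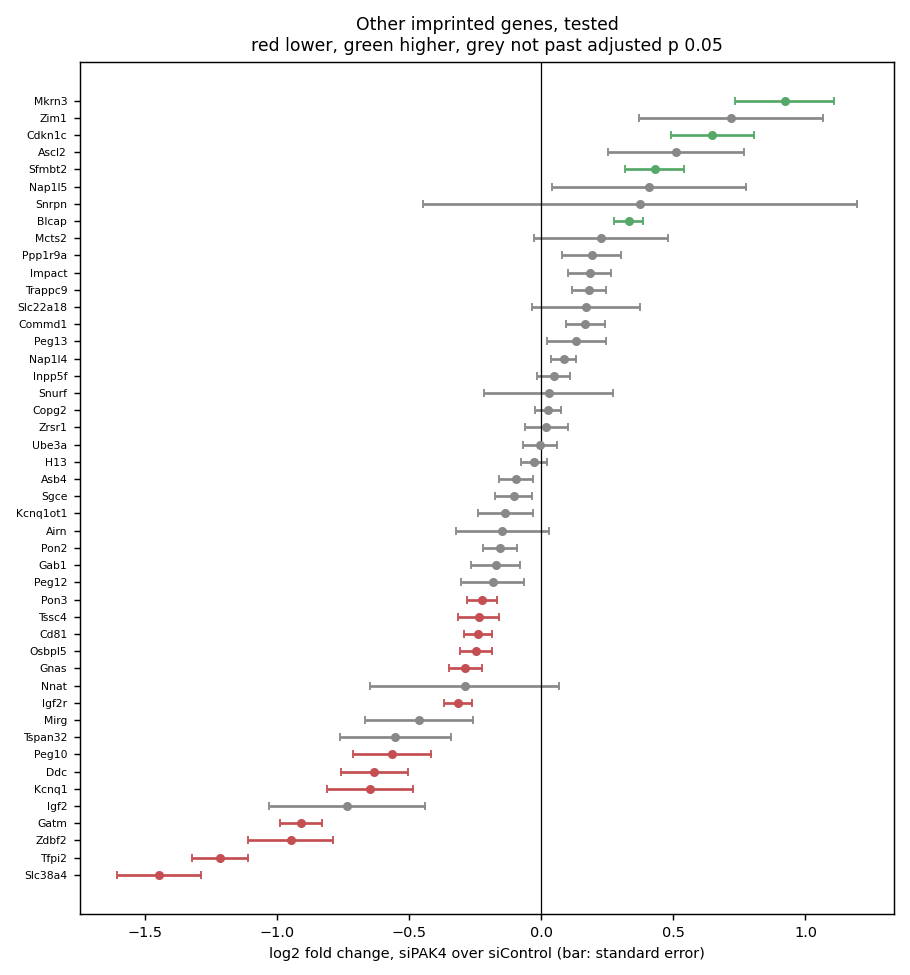
Log2 fold change with its standard error (x axis) of the 46 tested genes of the wider imprinted list, sorted by value. Slc38a4 at −1.45 is the lowest and Mkrn3 at 0.92 the highest; 13 genes are red (lower), 4 green (higher) and 29 grey (not past an adjusted p of 0.05).

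The insulin and IGF pathway is where Grb10, H19 and Igf2 act on growth. Of 28 tested genes of a list for it, which also holds Igf2 and Igf2r, 10 were lower, 2 higher and 16 did not pass, with a median log2 fold change of −0.13. Over all tested genes, 14.5% were lower and 12.4% higher. Igf1, the growth factor made by liver cells (−1.25, edgeR adjusted p = 3.1e-05), Irs1, the substrate on which insulin and IGF receptors signal (−1.28, adjusted p = 2.4e-05), and the binding protein gene Igfbp4 (−0.46, adjusted p = 0.00041) fell. Sh2b2, a further adaptor of the insulin receptor, rose (0.70, edgeR adjusted p = 0.00011). The receptor genes Igf1r (−0.17) and Insr (−0.04) were not called.

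Among 21 tested genes that set or keep imprints, 6 were lower, 0 higher and 15 did not pass, with a median of 0.02. With both directions pooled, calls were about as frequent as over all tested genes, where 26.9% were called. All calls in this list were falls, where 14.5% of all tested genes were lower and 12.4% higher. Dnmt3a, a de novo DNA methyltransferase, was 115 to 128 CPM in siControl and 73.6 to 77.0 CPM in siPAK4 (log2 fold change −0.65, edgeR adjusted p = 8.9e-06). Uhrf1, which brings the maintenance methyltransferase to replicating DNA, fell from 65.8 ± 3.08 to 48.2 ± 4.70 CPM (−0.45, adjusted p = 0.00089). Dnmt1 (−0.29, adjusted p = 0.0020) and the Polycomb gene Ezh2 (−0.36, adjusted p = 0.0046) also fell. DNA methylation itself was not measured.

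Of 8 tested partners of necdin and Dlk1 in stellate cells, 3 rose, 0 fell and 5 missed the threshold, and the median was 0.23. Beside this list and the next, 12.4% of all tested genes were higher and 14.5% lower. Pparg rose from 8.18 ± 0.378 to 11.4 ± 1.21 CPM (0.48, edgeR adjusted p = 0.0029), Cebpb, a factor of adipocyte differentiation and inflammation, by 0.75 (adjusted p = 5.9e-05) and Hif1a by 0.65 (adjusted p = 0.00015). Wnt10b, a Wnt ligand linked to necdin, had 20 counts in all and was not tested. Of 13 tested growth and fetal genes, a list that also holds Cdkn1c, 4 rose, 1 fell and 8 missed the threshold (median 0.17). Igf2bp1, which binds Igf2 and H19 RNA (0.94, adjusted p = 0.0043), Igf2bp2 (0.34, adjusted p = 0.011) and the fetal liver gene Afp (0.43, adjusted p = 0.0087) rose, and Gpc3, a glypican, fell (−1.92, adjusted p = 0.00013).

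Marker lists of other cells moved in the same libraries, and in bulk RNA fewer cells of a type and less RNA per cell cannot be told apart. Beside the counts below, 14.5% of all tested genes were lower and 12.4% higher. Of 12 tested mesothelial and portal fibroblast markers 8 were lower and 0 higher, and the summed level of the 13 in the table went from 1040 to 1286 CPM in siControl to 453 to 581 CPM in siPAK4; Gli1 had under 10 counts in all. Of 10 tested macrophage markers 6 were lower and 0 higher, while Adgre1 (0.14), Cd68 (−0.04) and Ptprc (−0.21) were among those not called. Of 9 endothelial markers 5 were lower and 2 higher. Of 13 stellate markers 6 were lower and 1 higher, with sums of 1403 to 1787 and 905 to 1113 CPM. Of 5 vascular smooth muscle markers 4 were lower and 0 higher, with sums of 64.0 to 81.0 and 39.2 to 55.6 CPM. Of 4 tested cholangiocyte markers 0 were called. Nearly all of their summed level was Spp1, a secreted phosphoprotein that other cells also make (mean 1392 CPM in siControl and 1183 in siPAK4), while Krt19, Krt7, Sox9 and Epcam averaged at most 2.67 CPM in either group. Hepatocyte markers were scarce and 3 of 4 tested were higher, with sums of 1.48 to 3.18 and 6.90 to 17.4 CPM, and Apoc3 had under 10 counts in all. The part of these lists in the members' values was not tested.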

How the data were processed

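Polyadenylated RNA was sequenced from 8 libraries, 4 per group, made with a stranded kit per the labels' protocols. One table deposited by the authors held read counts, FPKM and TPM per gene for build mm10, per the file headers; the counts were deposited without normalization, FPKM is scaled by the authors to depth and gene length, and TPM was deposited scaled to a fixed total per library. The submitters' processing notes list StringTie 2.1.3b, HISAT2 2.1.0 and, in addition, Bowtie2 2.3.4.1. How reads were counted, with which strand setting and how multiply matching reads were treated, is not given in the sources used here. All value columns matched a library name, with 0 left over.

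Genes were filtered with filterByExpr (minimum count 10), which left 17975 of 45777, scaled by TMM and compared by the quasi-likelihood test of edgeR 4.0.16 with robust estimation. P-values were adjusted by Benjamini-Hochberg over all tested genes, with a threshold of 0.05. CPM values use the TMM-scaled library size, standard errors come from the F statistic and intervals from its degrees of freedom. Within-library ratios used counts plus 0.5 and pairs with a mean of at least 10 counts in each group. Alternatives used DESeq2 1.42.0, limma 3.58.1, other filters, scalings and units, a replicate block, and each library left out. The edgeR procedure was tested on simulated counts. Replicates within a group differed by more than sampling noise (chi-square per degree of freedom of 13.7 or more).

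The members, the lists and the pairs were chosen with earlier results of these data known. Named were all members, the genes of their domains in the count table, the called genes of the wider imprinted list, and up to 4 called genes of each other list by adjusted p; others named (Kcnq1ot1, H13, Airn, Zrsr1, Lyz2, Spp1, Adgre1, Cd68, Ptprc, Krt19, Krt7, Sox9, Igf1r, Insr, Igf2bp2, Zfp57, Wnt10b and Col1a2) were chosen after their values were seen. Sequences and coordinates, counted from 1, are from RefSeq tables of GRCm38.p6, the mm10 assembly, in which all 9 members matched by gene identifier. The markers of other cells were matched by symbol, and 2 of the 64 imprinted symbols were not matched and not used here.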

Additional observations from a re-analysis of the deposited data

Results flagged for a closer look

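Among the genes of the members' domains and of the wider imprinted list, 3 values stood far from the other 3 libraries of their group, by Dixon's test at 95% over 140 groups of 4; chance flags about 1 in 20 groups. Gatm was 33.7 CPM in siPAK4 replicate 4 against 26.7 to 27.8 CPM in the other siPAK4 libraries. Mrpl23 was 18.0 CPM in siControl replicate 1 against 21.9 to 22.2 CPM in the others. Ikzf1 was 22.6 CPM in siPAK4 replicate 3 against 17.5 to 18.2 CPM in the others. None of the 9 members was among them.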

How the results depend on the processing

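Mest, Rian and Plagl1 kept their direction and call in all 17 alternatives, with log2 fold changes of −0.55 to −0.39, −0.61 to −0.37 and −0.66 to −0.38. The count of lower members was 5 as reported and 3 with library totals, TPM or FPKM at either pseudocount, 6 with DESeq2, and 3 to 5 with 1 library left out (3 without siControl replicate 2 or siPAK4 replicate 1). No alternative gave a higher member. Grb10 was not called with library totals (−0.12, adjusted p = 0.16), TPM (−0.17, 0.14) and FPKM with a pseudocount of 1 (−0.12, 0.15) or 0.1 (−0.12, 0.15), and ran from −0.26 to −0.18 with 1 library left out (adjusted p 0.0104 to 0.0741). Ndn was not called with library totals (−0.15, 0.15), TPM (−0.19, 0.13) and FPKM (−0.13, 0.14 and −0.14, 0.15), and ran from −0.28 to −0.18 with 1 library left out (adjusted p 0.030 to 0.10). Meg3 was called by DESeq2 (−0.51, 0.025) and ran from −0.64 to −0.37 with 1 library left out. H19 turned negative with limma-voom (−0.38), FPKM and a pseudocount of 0.1 (−0.070), the replicate block (−0.13) and without siPAK4 replicate 1 (−0.59 to 0.79 with 1 library left out). Dlk1 turned positive with library totals (0.016), limma-voom (0.057) and FPKM (0.000515 and 0.010), and ran from −0.40 to 0.40 with 1 library left out, positive without siControl replicate 1 or siPAK4 replicate 3; a minimum of 1 CPM gives it no value. Peg3 turned positive with library totals (0.044), TPM (0.020) and FPKM (0.065 and 0.075).

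Higher and lower calls over all genes were 3877 and 1859 with library totals, 3619 and 1712 with FPKM and a pseudocount of 1, and 3616 and 1722 with 0.1; with 1 library left out they ran from 1599 to 2496 and from 1944 to 2998. Other imprinted genes were 8 higher with library totals and 7 and 8 with FPKM, and 8 lower with TPM and with FPKM at either pseudocount. In TPM the ratio differences of Meg3 to Rian (0.10) and to Mirg (0.035) turned positive, Peg3/Zim1 was −0.33, Meg3/Dlk1 −0.37 and Ndn/Snrpn −1.04 (−1.11 with an offset of 5 counts). Ratio differences with 1 library left out ran from −0.08 to 1.18 for H19/Igf2, −0.16 to 0.16 for Meg3/Rian, −1.03 to −0.04 for Meg3/Dlk1, −2.76 to −0.42 for Ndn/Snrpn, −0.15 to 0.15 for Meg3/Mirg and −1.08 to −0.57 for Peg3/Zim1. The causes were not tested. Library totals shifted the median log2 fold change of all genes from 0.0052 to 0.094. A further 62 genes of the domains and lists gave 1047 values, of which 945 kept side and sign, 33 lost and 27 gained a call, and 42 changed sign, 0 of them for a gene that was called. Ppp2r5c turned with DESeq2 (0.00098), library totals (0.088), limma-voom (0.00024), a minimum of 1 CPM (0.0030), TPM (0.040), FPKM (0.094 and 0.096) and the replicate block (0.00026). Phactr2 turned with library totals (0.013) and FPKM (0.0070 and 0.0067), Ube3a with library totals (0.085), TPM (0.049) and FPKM (0.10 and 0.10), H13 with library totals (0.062), TPM (0.36) and FPKM (0.41 and 0.42), and Airn with FPKM (0.0061 and 0.0021). With 1 library left out the ranges that crossed 0 were −0.041 to 0.032 for Ppp2r5c, −0.14 to 0.0080 for Phactr2, −0.026 to 0.073 for Sf3b5, −0.022 to 0.050 for Cep41, −0.047 to 1.06 for Snrpn, −0.14 to 0.21 for Snurf, −0.046 to 0.044 for Ube3a and −0.023 to 0.049 for Zrsr1.

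Replicate numbers are shared by label only: same-numbered libraries had correlations of −0.047 to 0.10 in their deviations from group means, and not every library correlated best with its own number. With the replicate block 2056 genes were higher and 2531 lower, and 4 members remained called; Ndn was not (−0.24, adjusted p = 0.057).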
